A study of Drosophila melanogaster with 2 samples.

Results

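The 32 genes described here are 25 factors of the PIWI-interacting RNA (piRNA) pathway and 7 heterochromatin proteins, out of 18277 annotated genes. They were chosen by name, and the groups were set by what each protein does. All were found in the annotation, all are protein-coding, and none belongs to both groups. The data are chromatin immunoprecipitation with sequencing (ChIP-seq) of an eGFP fusion of Wdn, a C2H2 zinc finger protein and product of the gene wings down. There was 1 group, of 2 biological replicates, each of whole Drosophila melanogaster embryos of the wdn-GFP strain at 0 to 24 hours, precipitated with an antibody against GFP. The sources used here give neither the promoter of the transgene nor its dose relative to the native gene, no control library was analysed here, and whole embryos mix all cell types. Peak lists hold no expression values, so neither the stage nor the activity of any gene could be checked against them. A summit is the highest point of a peak. A gene was called bound when a summit of the thresholded list from both replicates lay within 500 bp of one of its transcript starts. Listed peaks have an irreproducible discovery rate (IDR) of at most 0.01, and the ranked list also holds the weaker peaks that the threshold left out. A peak in the list from both replicates need not be in either replicate's own list, so its IDR alone does not show that both replicates held it. The signal value is the authors' own score of a peak, its scale was not stated, and it is compared only within a list.

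In the germ line, piRNAs guide PIWI proteins to transposon transcripts. Their precursors come from heterochromatic clusters that are transcribed with the help of Rhino, Deadlock and Cutoff, and are cut into piRNAs on mitochondria and in the perinuclear nuage. Piwi itself acts in the nucleus, where its partners recruit the histone methyltransferase Eggless, and the methylated histone is then bound by HP1 proteins. Many of these proteins are supplied to the egg by the mother, whereas the general heterochromatin proteins also act in somatic cells.

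The sequences below show the letters under 5 of the 8 listed summits, strongest first, and under 2 unlisted ones, each reaching 50 bases to either side of the summit. Each reads 5′ to 3′ on the strand of its gene in dm6, taken from the RefSeq copy of that assembly, with the summit at base 51 and capitals marking any match to the 8 short motifs examined further below.
papi, chr2L:2221735-2221835, plus strand: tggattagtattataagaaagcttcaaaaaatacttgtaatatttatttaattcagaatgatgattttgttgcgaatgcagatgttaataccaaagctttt
piwi, chr2L:10987594-10987694, minus strand: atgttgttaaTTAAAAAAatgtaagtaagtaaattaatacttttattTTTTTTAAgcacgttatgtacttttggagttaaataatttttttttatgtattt
HP1b, chrX:9081102-9081202, plus strand: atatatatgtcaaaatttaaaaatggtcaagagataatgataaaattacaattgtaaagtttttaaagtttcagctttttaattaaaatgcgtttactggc
spn-E, chr3R:15837188-15837288, plus strand: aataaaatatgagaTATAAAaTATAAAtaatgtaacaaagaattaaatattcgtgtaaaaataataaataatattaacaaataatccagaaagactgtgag
Su(var)3-9, chr3R:15263331-15263431, minus strand: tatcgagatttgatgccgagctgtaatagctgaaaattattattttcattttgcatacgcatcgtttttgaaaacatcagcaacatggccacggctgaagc
HP1a gene (FBgn0003607), chr2L:8211238-8211338, minus strand: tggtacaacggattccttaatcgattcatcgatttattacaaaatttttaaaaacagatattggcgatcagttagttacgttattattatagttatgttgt
vret and HP1c (printed on the vret strand), chr3R:22745553-22745653, minus strand: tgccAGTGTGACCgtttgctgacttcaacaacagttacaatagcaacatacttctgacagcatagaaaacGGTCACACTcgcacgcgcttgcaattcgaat
The strongest, that of papi, held 75.2% A and T and no motif match. The piwi window was 84.2% A and T and matched TTAAAAAA on both strands, and the spn-E window, 83.2%, held TATAAA in 2 copies. The windows of HP1b (78.2%) and Su(var)3-9 (61.4%) had no match. Of these 2 unlisted summits, that of the HP1a gene (72.3%) had none, and the shared one of vret and HP1c (54.5%) held GGTCACACT, the core of Ohler motif 1, once on each strand.

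Wdn-eGFP summits lay at the starts of 8 of the 32 genes. The bound piRNA factors were papi, cuff, piwi, spn-E and tud, 5 of 25, and the bound heterochromatin proteins were wde, HP1b and Su(var)3-9, 3 of 7. The background was 12.3% of all annotated genes. Ranked summits, listed or not, lay at 19 of the 25 piRNA factors and all 7 heterochromatin genes, and at 14397 of all 18277 annotated genes. Having one is thus common and does not set the members apart. Among genes with a ranked summit 15.7% were bound (18.3% of the protein-coding ones). Both of these further backgrounds, over all and over protein-coding genes, were chosen after the values were seen. Of the members with a ranked summit, 5 of 19 piRNA factors (26.3%) and 3 of 7 heterochromatin proteins (42.9%) were bound. No test was made, because the genes were chosen with earlier results of these data known and genes are not replicates. The bound members' signals ran from 49.0 to 308 with a median of 71.6 (n = 8), against a median of 87.2 over the other 2247 bound genes. The 18 members with a ranked but unlisted summit had signals of 3.08 to 43.1 and a median of 20.9, against 22.6 over the other 12124 such genes.

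**Figure D1:**
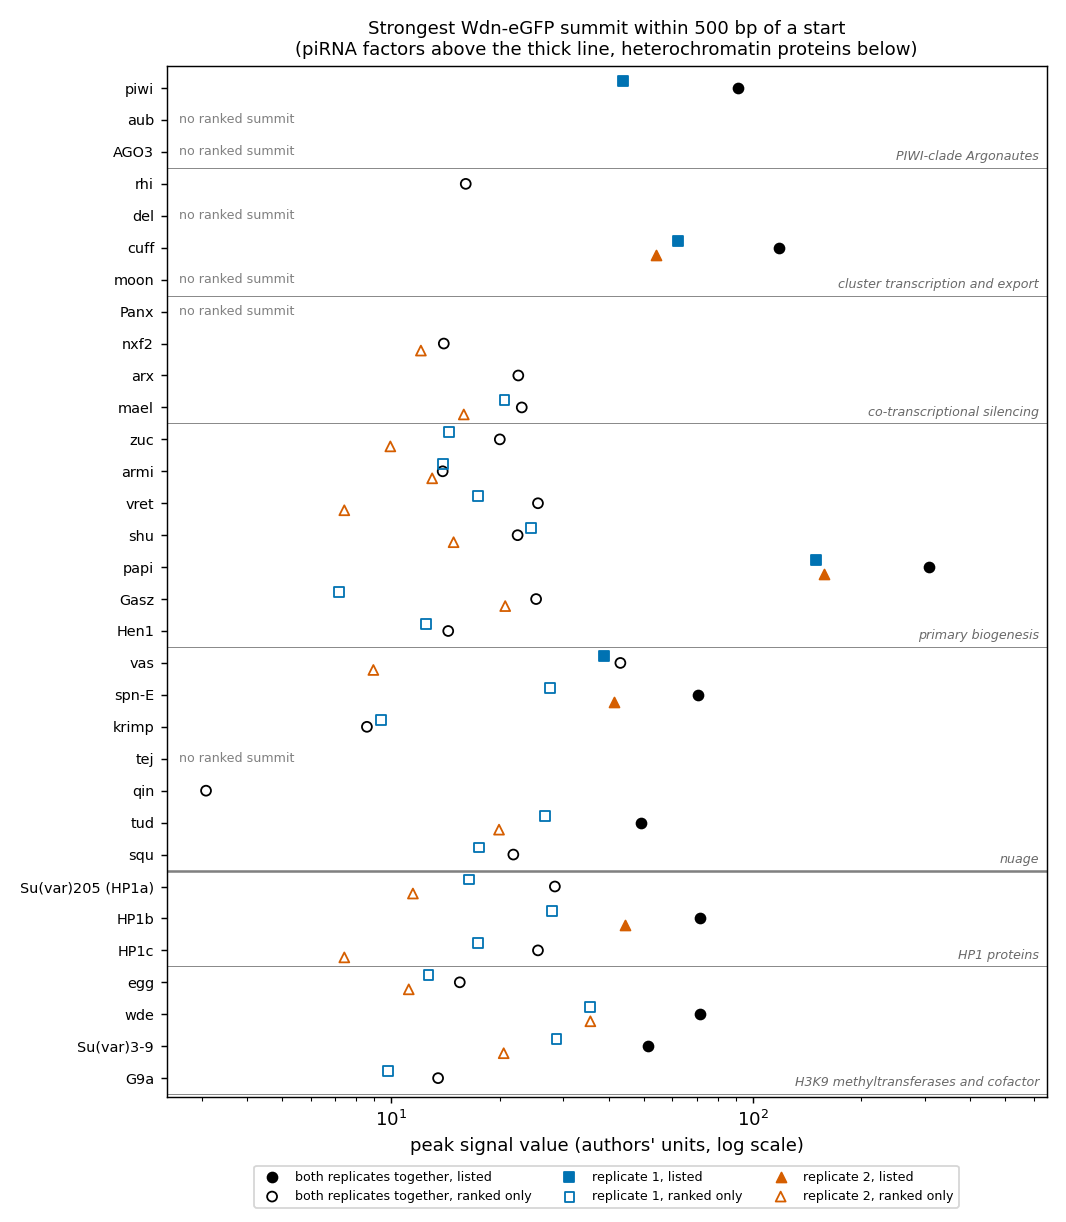
Signal value of the strongest summit within 500 bp of a start (horizontal axis, authors' units, log scale) for each of the 32 genes, grouped by role, in the list from both replicates (circles), replicate 1 (squares) and replicate 2 (triangles); filled symbols are listed, open ones ranked only. The papi summit is the strongest at 308, and 6 piRNA factors have no ranked summit in any list.

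Among the PIWI-clade Argonautes, which carry the piRNAs, only piwi (FBgn0004872) was bound, and in 1 replicate only. Its summit at chr2L:10987644 reached 90.9 in the list from both replicates, at an IDR of 0.000744. Replicate 1 alone gave 43.9 at the same position and listed it. Replicate 2 had no ranked summit within 500 bp, its nearest being 1817 bp away, and the conservative list lacked the peak too. The cytoplasmic Argonautes aub and AGO3, which amplify piRNAs by ping-pong cleavage, had no ranked summit within 500 bp in any list. The nearest listed summit was 9689 bp from an aub start and 573467 bp from an AGO3 start.

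Of the genes for cluster transcription, cuff (FBgn0260932) was bound with a signal of 118 at chr2R:11885788. Cutoff, its product, is the Rai1-like partner of Rhino that protects precursor transcripts from termination. The replicates alone gave 62.2 and 54.2, and both listed the peak. The HP1 homologue gene rhi had ranked summits, the strongest of signal 16.1 (IDR 0.534), in the list from both replicates alone. The genes of the linker Deadlock (del) and of Moonshiner (moon), a TFIIA-like initiation factor, had none. None of the 4 genes that act when Piwi silences transcription was bound. Panx, which links Piwi to the silencing machinery, had no ranked summit, and its partner nxf2, the zinc finger gene arx and mael had signals of 14.0, 22.5 and 23.0 with IDR values of 0.862, 0.588 and 0.686.

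The strongest summit within 500 bp of a member's start was at papi (FBgn0031401), a Tudor-domain gene whose product holds precursors on the mitochondrial surface for trimming. Its signal of 308 at chr2L:2221785 placed it at the 99.0th percentile of the 14397 genes with a ranked summit. The replicates gave 150 and 158, and both listed it. The other 6 genes of primary biogenesis were not bound, and each had a ranked summit, as most annotated genes did. These are zuc, the endonuclease gene, with a signal of 20.0, the helicase gene armi (13.9), vret (25.5), shu (22.4), Gasz (25.2), whose product anchors the machinery to mitochondria, and Hen1 (14.4), the methyltransferase that modifies the 3′ ends of finished piRNAs. The IDR values of these summits were between 0.332 for shu and 0.862 for armi and Hen1. The zuc summit, at -445 bp, was nearer to the start of dgt2, at 391 bp.

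In the nuage group 2 of 7 genes were bound. The helicase gene spn-E (FBgn0003483) had a signal of 70.8 (IDR 0.00156) at chr3R:15837238. Its replicate signals were 27.5 and 41.4, of which replicate 2's alone was listed. At tud (FBgn0003891), founding member of the Tudor family, the signal was 49.0 with an IDR of 0.00908, the closest to the threshold of the bound genes, and the replicates' 26.7 and 19.9 were not listed. The helicase gene vas had nearly the same signal, 43.1, and was not listed, with an IDR of 0.718. Replicate 1's own list did hold the vas peak, at 38.9 (IDR 0.00688), whereas the strongest ranked summit of replicate 2 in that window had 8.94 and lay at -338 bp, against -95 bp in replicate 1. The vas start is also that of solo, so the peak could not be given to either gene. The scaffold gene krimp had a signal of 8.58, squ 21.8, and qin 3.08, the weakest of the set, while tej had no ranked summit. The squ summit lay 120 bp downstream of a start that is also that of grp.

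All 7 heterochromatin genes had a ranked summit, as most annotated genes did, and none of the 7 was in replicate 1's own list. Of the HP1 genes, HP1b (FBgn0030082) was bound with 71.5 at chrX:9081152 (IDR 0.000681). The replicates gave 27.9 and 44.4, and replicate 2 listed it. The gene of HP1a (FBgn0003607), the main reader of methylated histone in heterochromatin, missed the threshold at an IDR of 0.130 (signal 28.4), the lowest among the members not bound. Its replicates gave 16.4 and 11.5. The summit in the list from both replicates, at -166 bp, was nearer to the start of Ssb-c31a, at -59 bp. HP1c had 25.5, with 17.4 and 7.43 in the replicates, and these are the values of vret too. The 2 genes diverge from starts at 22745620 and 22745581 of 3R and share 1 unlisted summit between them (IDR 0.371), so 1 peak counts once in each group.

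Of the histone methyltransferase genes, Su(var)3-9 (FBgn0263755) was bound with a summit of signal 51.3 (IDR 0.00781) at chr3R:15263381, near the threshold, and with 28.7 and 20.5 in the replicates, neither listed. The gene of the Eggless cofactor, wde (FBgn0027499), had 71.7 at chr2R:10806814 (IDR 0.00119) and 35.6 in each replicate, again listed by neither. The genes of Eggless (egg, the SETDB1 homologue) and of the euchromatic enzyme G9a had signals of 15.5 and 13.5, both with an IDR of 0.862.

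Few of the 8 bound genes could claim a summit as theirs alone. The summits of piwi, cuff and spn-E lay at -224, -279 and -181 bp from the member's start, negative meaning upstream, and nearer to the start of a gene on the other strand. These were CG12253 at -162 bp, CG13185 at -203 bp and ND-23, a subunit gene of respiratory complex I, at -121 bp. At Su(var)3-9 the summit was 77 bp downstream of a start that is also the start of the translation initiation factor gene eIF2gamma, and at -171 bp from that of Set. The HP1b summit was 89 bp downstream of its own first start and at -95 bp from that of CG7246. The tud summit was at -73 bp, and at 393 and -500 bp from the starts of the tRNA genes tRNA:Gly-GCC-1-13 and tRNA:Trp-CCA-2-6. No other gene's start lay within 500 bp at papi and wde. With each summit given to its nearest start alone, 2 piRNA factors (tud and papi) and all 3 heterochromatin genes kept theirs, 62.5% of the 8, against 72.6% of the other bound genes. Genes tied at the nearest start were all kept, so Su(var)3-9 shares its summit with eIF2gamma here too.

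**Figure D2:**
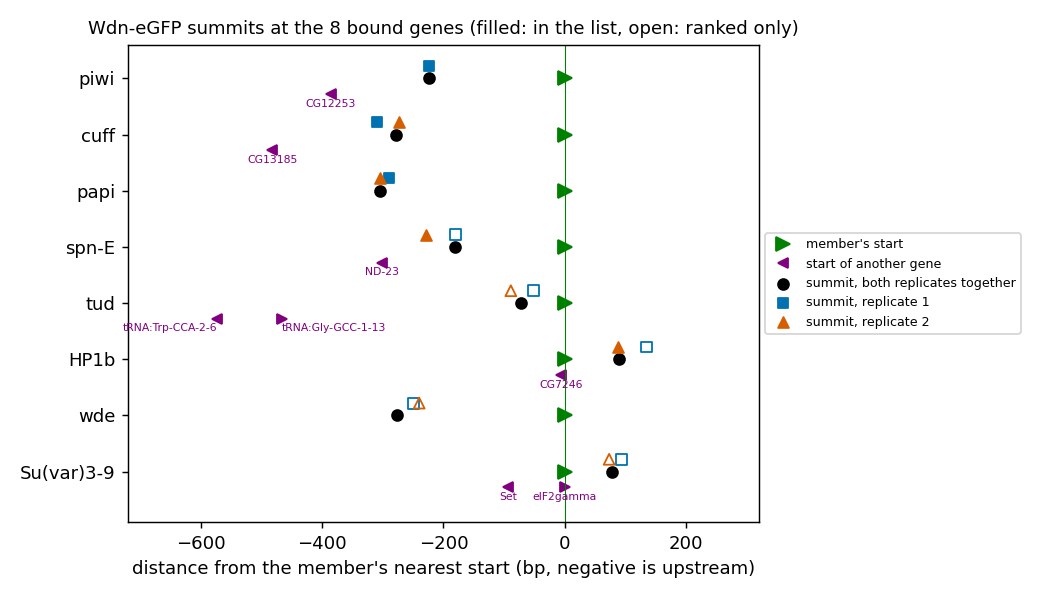
Position of the strongest summit relative to the member's start (bp, negative is upstream) at the 8 bound genes, in the list from both replicates (circles), replicate 1 (squares) and replicate 2 (triangles); green arrowheads are the members' starts and purple ones those of other genes, pointing in the direction of transcription. The piwi, cuff and spn-E summits lie between diverging starts, and those of Su(var)3-9 and HP1b lie downstream of the member's nearest start.

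The papi and wde summits were both in introns, upstream of an internal start. That of papi was 304 bp upstream of the start at 2222089 and 1037 bp downstream of the first start of the gene. That of wde was at -277 bp from its other start and 2124 bp inside the gene. Of the 8 summits 6 were upstream of the nearest start (75%, against 83.6% of the other bound genes), those of Su(var)3-9, in the 5′ UTR, and HP1b, in an intron, being the exceptions. The HP1b summit also lay upstream of that gene's second start, at 9081254. Replicate 1's HP1b summit was at -57 bp from that second start.

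Some members had listed peaks beyond 500 bp, of which those of wde, armi and del lay within 1000 bp of a start. In wde a second peak lay in an intron, 537 bp downstream of the first start, with its summit at chr2R:10808401. It had a signal of 323, above the papi peak, with 155 and 166 in the replicates, both of which listed it. A summit 595 bp from an armi start had a signal of 129 (replicates 57.8 and 75.7) and lay at -119 bp from the start of eIF5B. One 727 bp upstream of del had 63.9, and replicate 1 gave 41.8 there while replicate 2 had no ranked summit within 150 bp. A peak of 357 was 1889 bp from the start of the HP1a gene and 52 bp downstream of that of CG8360. Inside vas, an intronic summit of signal 53.5 was 6444 bp from the vas start and at -22 bp from that of vig. Of the 24 members not bound, 2 (8.33%) had a listed summit within 1000 bp, 7 (29.2%) within 5000 bp and 15 (62.5%) within 10000 bp. Of the other 15998 genes not bound, 3.36%, 22.3% and 39.6% had one within these distances. These other genes include noncoding ones, whereas all members are protein-coding, and shares over protein-coding genes alone were not computed.

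The counts changed with the list. The conservative list kept 3 of 14 piRNA factors with a ranked summit (cuff, spn-E and papi) and 2 of 6 heterochromatin genes (wde and HP1b), with a background of 14.3%. Replicate 1's own list held 4 of 15 (piwi, cuff, vas and papi) and 0 of 7, against 12.9% of genes, and replicate 2's held 3 of 12 (cuff, spn-E and papi) and 1 of 6 (HP1b), against 13.1%. Among genes with a ranked summit the share was thus larger for piRNA factors in each replicate alone, the opposite of the order in the main list. Over all members this held in replicate 1 (16% against 0%) but not in replicate 2, where 12% of piRNA factors and 14.3% of heterochromatin genes were bound. At an IDR of at most 0.001, piwi, cuff, papi and HP1b were left, 3 of 19 and 1 of 7, with a background of 9.6%.

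The window mattered as well. Within 200 bp of a start 2 of 12 piRNA factors (spn-E and tud) and 2 of 7 heterochromatin genes (Su(var)3-9 and HP1b) were bound, with a background of 16.5%, and within 1000 bp 7 of 22 (del and armi added) and 3 of 7, with 17.1%. Assignment to the nearest start alone, with tied genes all kept, gave 2 of 17 and 3 of 6, against 12.6%. Counting any base of a peak in place of its summit gave 6 of 20 (armi added) and 3 of 7, against 16.1%. Adding the 121 ranked peaks that pass the threshold but are absent from the list changed no member, and the background was then also 16.1%.

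**Figure D3:**
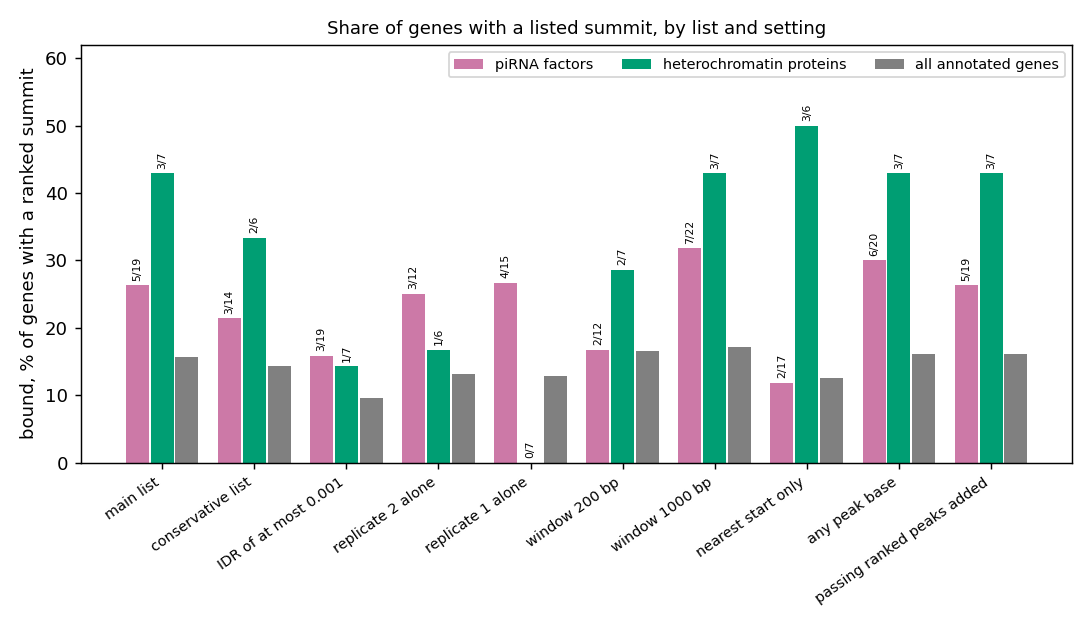
Percent of genes with a ranked summit that were bound (vertical axis), for piRNA factors, heterochromatin proteins and all annotated genes, in each list and setting; numbers above bars are bound genes over genes with a ranked summit. Heterochromatin proteins stand at 42.9% in the main list and at 0 in replicate 1 alone. In replicate 1 the summits of wde, HP1b and Su(var)3-9 had IDR values of 0.0112 to 0.04, above the limit of 0.01.

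Replicate support differed among the bound members. Of the 8 bound members 2 (25%), cuff and papi, were in both replicates' own lists, 3 (37.5%) in 1 of them, and 3 (37.5%), namely tud, wde and Su(var)3-9, in neither. This counts summits within 500 bp only, and the stronger wde peak 537 bp from a start was listed by both replicates. Of the other 2247 bound genes 47.6% were in both, 29.1% in 1 and 23.3% in neither. With only 8 bound members, their shares do not set them apart from these. At 17 members both replicates had a ranked summit within 500 bp of a start, and at 9 of these (52.9%) the strongest summits of the replicates lay within 50 bp of each other, against 39.4% of 8454 other genes. The summits that vret and HP1c share were counted for each, and counted once they leave 8 of 16.

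By median, listed summits were richer in A and T than unlisted ones, both at members and over all starts. Within 50 bp of the summit the share ran from 59.4% at wde to 84.2% at piwi, with a median of 74.2% (n = 8). Main-list summits at all starts had a median of 65.3% (mean 63.3%, SD 11.2, n = 1705). The summits of tud (65.3%), Su(var)3-9 (61.4%) and wde were not above that median. Only 8 bound summits do not set the members apart from main-list summits. The 18 members that were not bound, in which the shared summit of vret and HP1c counts for each, had a median of 54.5%, from 40.6% at arx to 73.3% at vas, and ranked summits at starts outside the list had 52.5% (n = 19774). Members are represented by their strongest summit, whereas the sets of 1705 and 19774 hold every such summit at a start. The 2 sets of members overlapped, since vas and the HP1a gene exceeded tud, Su(var)3-9 and wde.

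**Figure D4:**
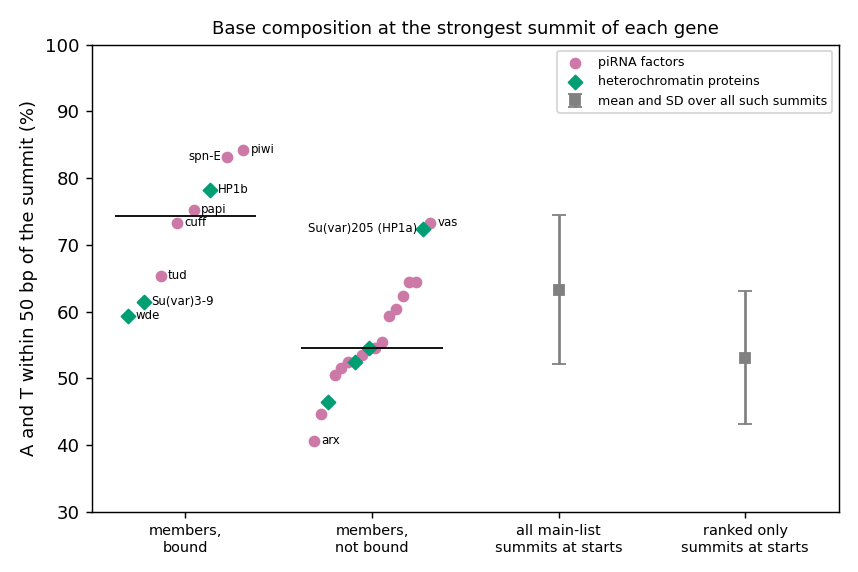
Percent of A and T within 50 bp of the summit (vertical axis). Members, bound and not bound, are shown by the strongest summit of each gene. All main-list summits and all ranked-only summits at starts, not only the strongest of a gene, are shown as mean and SD. Circles are piRNA factors, diamonds heterochromatin proteins, and lines medians. The bound members have a median of 74.2% and those not bound 54.5%.

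The 8 motifs were searched for under the 8 bound summits and in the members' promoters. The words TTAAAAAA, TATATTAA and CACAGTGG had been picked in an earlier analysis of these peaks. On either strand within 50 bp, TATCGATA (the DNA replication-related element), GGTCACACT, CACGTG (an E-box), GAGAG, TATATTAA and CACAGTGG were in none of the 8 bound summits, and TATAAA and TTAAAAAA in 1 each. TATAAA was in 20.6% of main-list summits at starts, TTAAAAAA in 6.39%, GAGAG in 10.3%, TATATTAA in 3.40%, TATCGATA in 2.52%, CACAGTGG in 1.41%, CACGTG in 1.11% and GGTCACACT in 0.880%. With only 8 bound summits, counts of 0 and 1 do not set the members apart from these shares. In the promoter from 250 bp before to 50 bp after any start of a gene, TATCGATA was present at 8 of the 32 members (25%), against 8.09% of the other 18245 genes, and GGTCACACT at 6 (18.8%), against 5.30%. All members are protein-coding, whereas the other genes include noncoding ones. The share over protein-coding genes alone was not computed, so these differences cannot be credited to the members. The genes with TATCGATA were Panx, arx, tej, spn-E, qin, Hen1, Gasz and Su(var)3-9, and those with GGTCACACT were piwi, del, zuc, armi, vret and HP1c, the last pair with overlapping promoters. TATAAA was at 15 members (46.9%, against 48.2% of other genes), GAGAG at 8 (25%, against 34.6%), TTAAAAAA at 7 (21.9%, against 13.2%), TATATTAA at 3 (9.38%, against 5.70%), CACGTG at 2 (6.25%, against 5.11%) and CACAGTGG at 0 (against 1.74%). Per start in place of per gene, TATCGATA was in 6.77% and GGTCACACT in 4.37% of all annotated promoters. A match describes the letters alone.

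Further genes of both kinds were looked up. Of 26 other piRNA and small RNA genes 24 were matched, 19 had a ranked summit and 1 was bound, tral, a partner of Me31B in maternal ribonucleoprotein particles, with a signal of 96.0 (5.26%, background 15.7%). This list also held genes of the other small RNA pathways, such as AGO1, AGO2, Dcr-2 and loqs, and none of those was bound. Of 30 other heterochromatin genes 26 had a ranked summit and 10 (38.5%) were bound, among them trr, a histone H3 lysine 4 methyltransferase gene that is no part of heterochromatin. The strongest were Hmt4-20, the histone H4 methyltransferase gene, with 288, HP4 with 117, the kinase gene JIL-1 with 96.7 and SuUR with 91.6. These lists were drawn up by hand and differ in length and breadth, and no difference between them was tested.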

How the data were processed

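Both samples were ChIP-seq libraries of wdn-eGFP embryos. The authors deposited peak lists on dm6, per the file headers, made with the irreproducible discovery rate (IDR). There were 4 lists from both replicates, and every replicate had a thresholded and a ranked list. Each deposited peak carries a signal value, an IDR score capped at 1000 and, in ranked lists, the -log10 of the IDR capped at 5. Aligner, peak caller and versions are not given in the sources used here. Read depth is unknown, so no interval was computed. The last 8 columns of each ranked list carry no sample label and were not used.

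Summits were placed on Ensembl release 115 (transposon copies left out) with Python 3.11.15, numpy 2.4.6 and pandas 2.3.3. All ranked peaks on the main chromosomes fell inside the RefSeq sequence, and all 32 genes had the same ends there. The strongest summit within 500 bp of a start stood for a gene. Assignment was tested on simulated data. No test across genes was run. Percentiles rank a gene's signal among genes with a ranked summit. The text names all members, the genes starting within 500 bp of their listed summits, and the 4 bound genes of highest signal, or all if fewer, of each further list. Members, lists and motifs were chosen with earlier results of these data known. The nearest listed peaks described, trr, the unbound small RNA genes and the other genes named at unlisted summits were chosen after their values were seen.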

Additional observations from a re-analysis of the deposited data

How the results depend on the processing

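The member count of 8 was 5 in the conservative list and with nearest starts only, and 4 with a 200 bp window or an IDR limit of 0.001; leaving out either replicate gave 4. Of piRNA factors, 3 were bound in the conservative list and under the IDR limit of 0.001, 2 with a 200 bp window or nearest starts only, and 3 to 4 with a replicate left out. Of heterochromatin proteins, 1 was bound under the IDR limit of 0.001 and 0 to 1 with a replicate left out. The difference in percent bound, piRNA factors minus heterochromatin proteins over all members, was -22.9 percentage points. It was -2.29 under the IDR limit of 0.001 and without replicate 1, and reversed to 16.0 without replicate 2; the cause was not tested. The median signal of bound members, 71.6, was 104 under the IDR limit of 0.001, 61.1 within 200 bp and 81.2 within 1000 bp, and 49.3 to 53.0 in the single replicates, which have their own scale. The median percentile of members with a ranked summit, 46.7, was 59.0 within 1000 bp and 50.3 to 56.4 in single replicates. The share difference was also -34.9 with nearest starts only and -14.9 within 1000 bp, where 7 piRNA factors were bound, and 2 heterochromatin proteins were bound in the conservative list and within 200 bp. Adding the absent passing peaks changed no count of members, and papi and HP1b were each bound in 8 of the 9 alternatives. Read depth is not in the lists, so a missing summit does not show that Wdn was absent. No paired analysis was possible because the 2 replicates form 1 group.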
